A study of Mus musculus with 8 samples.

Results

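Described here are 35 mouse genes of glycolysis and the hypoxia response, named one by one by symbol, in CD45+ immune cells of E0771 mammary tumors. They were 16 glycolysis members (the glucose transporter, the enzymes from hexokinase to lactate dehydrogenase and the lactate exporter) and 19 other hypoxia targets and regulators, out of 32285 genes in each matrix. Every symbol was found and every member had at least 1 count in the kept cells; the symbol Aldoa stood on 2 rows, of which the second held 0 counts.

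E0771 is a mouse mammary carcinoma line of triple-negative type, and E0771-Res1 and E0771-Res2 are lines grown from E0771 tumors that came back after paclitaxel with an anti-PD-1 antibody, so each resistant line stands for 1 relapsed tumor. Mammary tumors of the 3 lines were taken on day 18, and live CD45+ cells were sorted, tagged by mouse with oligonucleotides, pooled and sequenced as single cells from the 3′ end of transcripts. The labels name no treatment, genotype or age for the hosts. Used were 2 parental E0771 mice (replicates 1 and 3), 3 E0771-Res1 and 3 E0771-Res2 mice, so each parental value rests on 2 animals. The comparisons ask whether sugar-burning and oxygen-response genes differ in the immune cells of parental and resistant tumors, and in which of those cells they are high.

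Glycolysis splits glucose into pyruvate, and lactate dehydrogenase with the lactate exporter lets it run without oxygen. When oxygen is low, the prolyl hydroxylases encoded by Egln1 and Egln3 no longer mark HIF-1α (gene Hif1a) for destruction, and the HIF dimer binds a short DNA core at target promoters, among them most glycolysis genes, so that HIF-1α is set by protein stability more than by its transcript. Part of the response feeds back (Egln3, Ankrd37), part turns mitochondria down (Pdk1, Bnip3) and part acts on other cells (Vegfa, Adm). Myeloid cells of poorly perfused tumor areas are known to switch these genes on.

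The promoters of 5 members are shown because the results below turn on them. Ankrd37 and Egln3 were among the genes used to mark single cells. Bnip3 and Slc2a1 differed most between marked and other cells among the members of their lists that the mark did not use. Pgk1 is an enzyme of the pathway's payoff phase. The 5 members were picked with the values known. Each run holds 250 bases before and 50 after the start of a transcript, 5′ to 3′ on the gene's strand, from RefSeq on GRCm38.p6: chr8:45999801-46000100 (minus) for Ankrd37, chr12:54203825-54204124 (minus) for Egln3, chr7:138909457-138909756 (minus) for Bnip3, chr4:119108495-119108794 (plus) for Slc2a1 and chrX:106186850-106187149 (plus) for Pgk1. Capitals mark the hypoxia response core, ACGTG or GCGTG on either strand (read as CACGT or CACGC on the other).
Ankrd37: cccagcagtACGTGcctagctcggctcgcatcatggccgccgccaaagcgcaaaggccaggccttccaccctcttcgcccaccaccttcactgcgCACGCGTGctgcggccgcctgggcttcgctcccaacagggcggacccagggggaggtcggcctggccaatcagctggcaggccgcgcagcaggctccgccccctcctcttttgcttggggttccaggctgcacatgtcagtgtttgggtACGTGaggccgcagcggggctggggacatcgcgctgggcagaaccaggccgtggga
Egln3: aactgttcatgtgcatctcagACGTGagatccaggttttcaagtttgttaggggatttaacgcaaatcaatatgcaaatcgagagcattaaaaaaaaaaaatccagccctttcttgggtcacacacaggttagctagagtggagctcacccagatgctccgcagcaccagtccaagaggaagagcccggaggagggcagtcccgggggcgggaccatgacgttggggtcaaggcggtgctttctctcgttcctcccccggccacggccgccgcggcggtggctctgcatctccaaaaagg
Bnip3: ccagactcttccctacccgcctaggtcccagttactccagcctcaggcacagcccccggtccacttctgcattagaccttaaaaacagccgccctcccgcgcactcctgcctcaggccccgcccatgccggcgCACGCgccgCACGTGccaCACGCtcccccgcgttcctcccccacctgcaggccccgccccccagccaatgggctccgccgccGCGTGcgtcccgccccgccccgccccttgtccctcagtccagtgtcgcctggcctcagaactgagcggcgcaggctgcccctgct
Slc2a1: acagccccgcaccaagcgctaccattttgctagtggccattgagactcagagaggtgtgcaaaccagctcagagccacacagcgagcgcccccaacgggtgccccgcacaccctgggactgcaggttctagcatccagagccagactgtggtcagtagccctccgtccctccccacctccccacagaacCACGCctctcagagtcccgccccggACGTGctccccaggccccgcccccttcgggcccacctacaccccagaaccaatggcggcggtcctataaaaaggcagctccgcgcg
Pgk1: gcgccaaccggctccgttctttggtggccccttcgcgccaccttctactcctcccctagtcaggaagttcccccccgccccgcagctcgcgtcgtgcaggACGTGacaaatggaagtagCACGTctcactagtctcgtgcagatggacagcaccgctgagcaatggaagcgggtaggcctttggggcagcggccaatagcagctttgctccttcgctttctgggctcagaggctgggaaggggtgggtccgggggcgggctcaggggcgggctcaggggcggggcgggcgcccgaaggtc

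The core occurred 4 times in the run of Ankrd37, 1 time in Egln3, 5 times in Bnip3, 2 times in Slc2a1 and 2 times in Pgk1, and 1 site of Bnip3 was CACGTG, which is also the E-box bound by other factors and holds the core on both strands. Of the 35 members, 34 had a promoter in the table (49 promoters), and Ndrg1 had none. At least 1 promoter held the core in 32 of 34 members (94.1%), against 46.7% of 27025 genes. Counted by promoter, 39 of 49 promoters of members (79.6%) held the core, against 43.8% of all 32851 promoters. All 18 other hypoxia members with a promoter (100%) and 14 of 16 glycolysis members (87.5%) held it; Gpi1, the isomerase of the pathway's second step, and Tpi1, which interconverts the triose phosphates, did not within this window. At least 2 matches stood in 26 members (76.5%) and in 22.9% of genes. A match is a description of letters, the members are a list of known hypoxia genes, and base composition was not compared.

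Of 11430 deposited cells, 10605 passed the limits of 500 to 6000 detected genes and under 10% mitochondrial counts. Mice gave 5036667 to 18894504 unique molecular identifiers (UMIs, one per captured RNA molecule), and the median per kept cell was 5589 to 7001 in E0771-Res2 and 7631 to 8160 in the other mice. Levels are CPM, a gene's counts relative to the counts of a mouse's summed cells without mitochondrial, ribosomal protein and Gm-prefixed genes. Counts from the 3′ end do not scale with transcript length. Ptprc, which encodes CD45, was detected in 86.7 to 95.2% of cells, and no barcode was shared between mice. Lymphoid-gated cells had at least 2 UMIs of Cd3d, Cd3e, Cd3g and Ncr1 (1284 cells), myeloid cells at least 5 UMIs of Lyz2, Csf1r, Cd68, Itgam and Fcgr3 and fewer than 2 of the first set (8563 cells). Myeloid cells were C1q-high with 10 or more C1qa UMIs (2325 cells) and C1q-low with at most 1 (4331 cells).

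The gates held what their names say in part. The sum of 5 T cell markers was 2347 to 3626 CPM in lymphoid-gated cells and 27.5 to 69.8 in the myeloid sets. These markers are Trac, Trbc2 and the gate genes Cd3d, Cd3e and Cd3g, so the gates fixed part of that difference. The sum of 6 macrophage markers was 13876 to 20445 CPM in C1q-high and 2064 to 2922 in C1q-low cells. Lymphoid-gated cells, however, also carried 3144 to 6682 CPM of the macrophage markers. In them 483 of 1284 cells (37.6%) had at least 30 UMIs of the myeloid gate genes, with medians of 11274 to 15730 UMIs per mouse against 3917 to 7632 in those with under 5. Values without these mixed droplets are given for the comparison with myeloid cells and for marked lymphoid-gated cells. The sums, line tests, further lists and mark shares of the lymphoid gate include them. Cells with tumor epithelial markers were few: 74 kept cells had at least 2 UMIs of them, 0.0891 to 1.06% per mouse. The paper classes E0771 tumors as mesenchymal-like, so epithelial markers can miss tumor cells and do not give their number. A further limit is that 758 kept cells fell in neither the lymphoid nor the myeloid gate.

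Glycolysis enzymes were among the abundant transcripts of these cells, and the members spanned about 3 orders of magnitude. Gapdh, the dehydrogenase that starts the payoff phase, stood at 1903 ± 91.7 CPM (SD, n = 8 mice) over all kept cells. Pkm, pyruvate kinase, followed with 969 ± 96.2, Aldoa, the aldolase, with 845 ± 66.0, Ldha, lactate dehydrogenase A, with 675 ± 32.7 and Tpi1 with 562 ± 55.4. Gapdh alone made up 27.5% of the glycolysis sum. The lowest glycolysis members were Hk1 (32.4 ± 3.69), a hexokinase that traps glucose in the cell, and Pfkl (53.8 ± 7.23), a phosphofructokinase.

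Among the other hypoxia members Mif, a secreted cytokine of macrophages, stood apart at 608 ± 69.3 CPM and made up 35.4% of their sum. Higd1a, a mitochondrial inner membrane protein, had 192 ± 12.1 and Hilpda, a lipid droplet protein that blocks fat breakdown, had 154 ± 29.1. Hif1a itself had 133 ± 22.5. At the low end were Egln3, the inducible oxygen sensor (10.1 ± 4.98), Adm, the vessel-widening peptide adrenomedullin (2.21 ± 0.836), and P4ha2, a collagen prolyl hydroxylase subunit (1.27 ± 0.558). Egln3 varied most among mice relative to its level, from 5.97 to 21.9 CPM, with the highest value in E0771-Res1 replicate 2. Adm and P4ha2 did not pass the filter on low counts in the gated sets, which left 33 members tested there and 35 over all kept cells. Several glycolysis genes, Gapdh among them, have near-identical pseudogenes, so their absolute levels are uncertain.

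**Figure D1:**
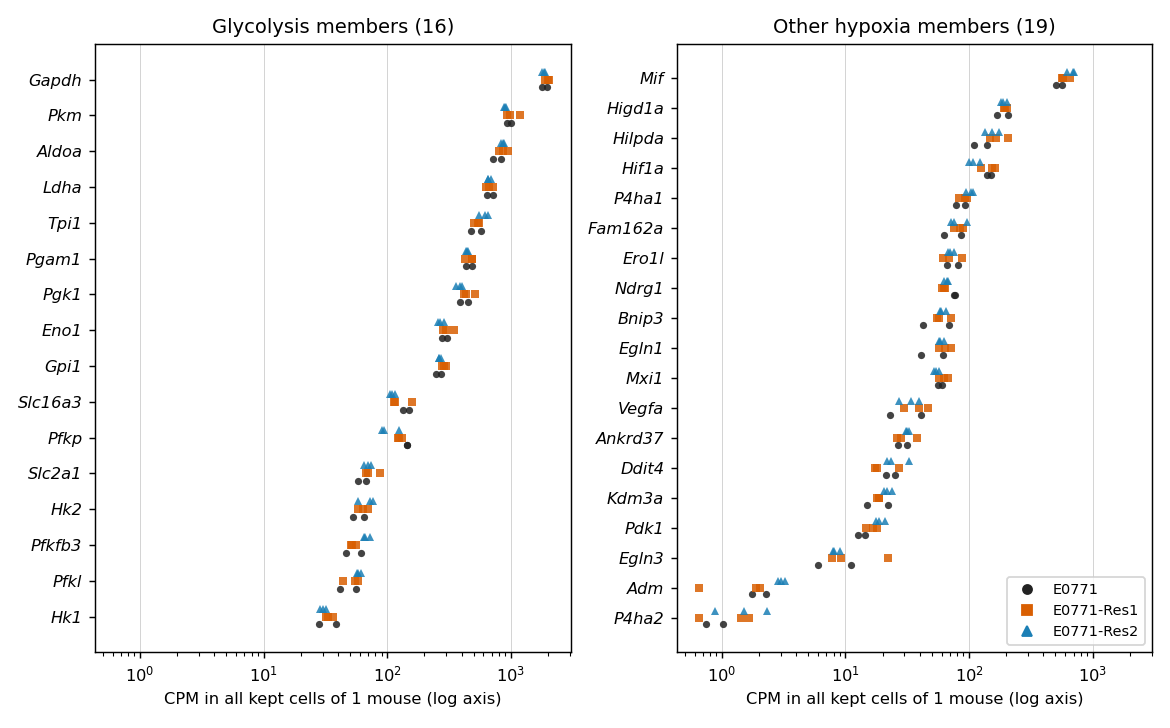
CPM of each member in all kept cells of each of the 8 mice, on a log axis, with glycolysis members on the left and other hypoxia members on the right, ordered by mean and marked by tumor line. The members ran from P4ha2 at 1.27 CPM to Gapdh at 1903, and for most members the symbols of the 3 lines lay on top of each other.

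Summed over the 16 glycolysis members, the 3 lines had nearly the same level over all kept cells. There the sum was 7189 and 6418 CPM in the E0771 mice, 7101, 7583 and 6740 in E0771-Res1 mice and 6624, 6826 and 6868 in E0771-Res2 mice. The ranges overlapped, with means ± SD of 6803 ± 545 (n = 2), 7141 ± 423 (n = 3) and 6772 ± 130 (n = 3). In lymphoid-gated cells the means were 7110 ± 745, 7713 ± 293 and 7184 ± 573, and in C1q-low myeloid cells 7243 ± 713, 7245 ± 599 and 6752 ± 123. In C1q-high cells the order was different: 6327 and 5600 CPM in E0771, 6871, 6589 and 6417 in E0771-Res1 mice and 6217, 7448 and 6726 in E0771-Res2 mice. The means there were 5963 ± 514, 6626 ± 229 and 6797 ± 618. All E0771-Res1 mice lay above both E0771 mice, while E0771-Res2 and E0771 mice overlapped. Sums get no test here, since the members were chosen with results of these data known.

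The other 19 members amounted to 24.8 ± 1.30 CPM per 100 CPM of the glycolysis members (SD, n = 8). Over all kept cells they had 1733 and 1454 CPM in E0771, 1760, 1842 and 1642 in E0771-Res1 mice and 1655, 1829 and 1808 in E0771-Res2 mice, and these ranges overlapped too. The ratio was 24.1 and 22.7 in E0771, 24.8, 24.3 and 24.4 in E0771-Res1 mice and 25.0, 26.8 and 26.3 in E0771-Res2 mice. All 3 E0771-Res2 mice lay above the 5 others in this ratio, which includes Mif. Mif was the largest part of the sum, and its own levels were 563 and 505 CPM in E0771, 651, 572 and 566 in E0771-Res1 mice and 615, 688 and 706 in E0771-Res2 mice. With Mif left out, the sum was 1171 and 949 CPM in E0771, 1109, 1271 and 1077 in E0771-Res1 mice and 1040, 1141 and 1102 in E0771-Res2 mice. The means were 1060 ± 157, 1152 ± 104 and 1094 ± 51.3. In this sum the E0771-Res2 mice did not lie above the others, so the order of the ratio cannot be read as one of all 19 members. The ratio with Mif was highest in lymphoid-gated cells (27.1, 26.2 and 28.6 in the 3 lines). It was lower in C1q-high (22.9, 24.3 and 25.3) and C1q-low cells (22.0, 23.7 and 24.6). Mif made up 40.9% of the sum of the other members in C1q-high and 32% in C1q-low cells.

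**Figure D2:**
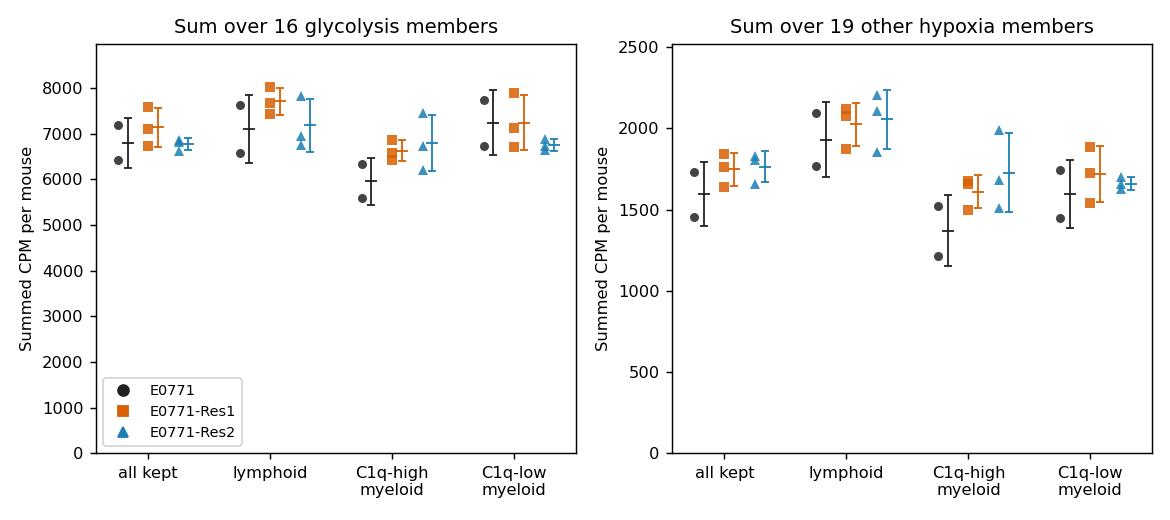
Summed CPM per mouse over the 16 glycolysis members (left) and the 19 other hypoxia members (right) in 4 cell sets, with one symbol per mouse and the mean ± SD of each line beside it. In all kept cells the glycolysis means of 6803, 7141 and 6772 CPM differed by less than the spread of the mice.

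Tested gene by gene, E0771-Res1 differed from E0771 at 0 of 35 members over all kept cells (edgeR quasi-likelihood test, adjusted p over all genes). Over all genes 0.0353% were called higher and 0% lower, so few genes passed at all. Among members, 2 had an unadjusted p under 0.05 and DESeq2 called 0. These were Hilpda, with a log2 fold change of 0.47 ± 0.16 (SE; edgeR adjusted p = 0.307), and Ndrg1, a stress protein induced by low oxygen, with -0.30 ± 0.08 (0.219). The median over the members was 0.08, beside -0.00 over all genes. The lymphoid gate (0.0216% of genes higher, 0.0216% lower), C1q-high cells (0.0437% and 0.0656%) and C1q-low cells (0.0207% and 0.0103%) also gave 0 members called between E0771-Res1 and E0771. There 5, 6 and 1 of 33 members had an unadjusted p under 0.05, and DESeq2 called 0, 0 and 1.

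E0771-Res2 differed from E0771 at 1 member over all kept cells, the platelet-type phosphofructokinase Pfkp, which carries out the committed step of glycolysis. Pfkp stood at 144 and 145 CPM in E0771, 123, 125 and 133 in E0771-Res1 mice and 91.4, 124 and 93.5 in E0771-Res2 mice. All E0771-Res2 mice lay below both E0771 mice, and 1 of them lay among the E0771-Res1 mice. The log2 fold change was -0.50 ± 0.12 (edgeR adjusted p = 0.0343), among 2.12% of genes higher and 2.24% lower. The monocyte marker sum over all kept cells was 7252 to 7429 CPM in E0771 and 4410 to 5298 in E0771-Res2 mice and the macrophage sum 5311 to 5734 and 7141 to 9161, and their part in the result was not tested. Without E0771 replicate 3 the adjusted p was 0.237 at the same direction, and 0 members were called without E0771 replicate 1 or 3 or without E0771-Res2 replicate 1 or 3. In all, 8 members had an unadjusted p under 0.05, in both directions. Higher were Pdk1 (0.48 ± 0.14), a pyruvate dehydrogenase kinase, and Mif (0.32 ± 0.09). Pfkfb3 (0.31 ± 0.11), which makes the activator of phosphofructokinase, and P4ha1 (0.24 ± 0.10), a collagen prolyl hydroxylase subunit, were higher too. On the lower side were Hif1a (-0.41 ± 0.13), Slc16a3 (-0.37 ± 0.14), the lactate exporter MCT4, Ndrg1 (-0.24 ± 0.08) and Pfkp. The adjusted p of these 8 members other than Pfkp's ran from 0.0693 to 0.195. The median over the members was 0.09, beside 0.01 over all genes.

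Between the resistant lines 0 of 35 members passed over all kept cells, where 2.49% of genes were higher in E0771-Res2 and 1.71% lower. Here 6 members had an unadjusted p under 0.05 and DESeq2 called 1; the lowest adjusted p of edgeR was that of Hif1a (-0.42 ± 0.11, adjusted p = 0.0592), followed by Pfkfb3 (0.35 ± 0.10, 0.0657). The comparisons with E0771 share the 2 parental mice, and those with E0771-Res2 share its 3 mice.

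Of 7 calls between lines 5 stood in C1q-low myeloid cells, where 3 of 33 members were lower in E0771-Res2 than in E0771 (2.01% of genes higher, 2.51% lower). Pfkp had 172 and 168 CPM in E0771, 161, 146 and 166 in E0771-Res1 mice and 116, 141 and 109 in E0771-Res2 mice (-0.50 ± 0.12, edgeR adjusted p = 0.0241). Slc16a3 had 211 and 191 CPM in E0771, 150, 207 and 160 in E0771-Res1 mice and 157, 116 and 138 in E0771-Res2 mice (-0.57 ± 0.15, adjusted p = 0.0376). Hif1a, the oxygen-regulated HIF subunit itself, had 154 and 159 CPM in E0771, 128, 153 and 162 in E0771-Res1 mice and 114, 110 and 101 in E0771-Res2 mice (-0.55 ± 0.12, adjusted p = 0.0190). In each of the 3 genes every E0771-Res2 mouse lay below both E0771 mice, and for Pfkp and Hif1a below all E0771-Res1 mice as well. The make-up of the C1q-low set moved with the lines too: the monocyte marker sum was 10301 to 11218 CPM in E0771, 7523 to 9254 in E0771-Res1 mice and 7373 to 8226 in E0771-Res2 mice, and the dissociation stress sum was 6062 to 6253, 6119 to 7765 and 7288 to 9707 CPM, with no gene of either list at 0. For both sums E0771 and E0771-Res2 did not overlap, and their part in the result was not tested. Each call was lost when 1 mouse was left out: the adjusted p reached 0.211 for Pfkp and 0.315 for Slc16a3 without E0771 replicate 1, and 0.171 for Hif1a without E0771 replicate 3. Without E0771-Res2 replicate 3, 0 members were called.

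The remaining 30 members tested in C1q-low cells did not pass, and the median over all 33 was -0.08 (0.01 over all genes). Against E0771-Res1, Pfkp (-0.40 ± 0.10, edgeR adjusted p = 0.0426) and Hif1a (-0.46 ± 0.11, 0.0252) were lower in E0771-Res2 as well, among 2.26% of genes higher and 1.99% lower. Without E0771-Res2 replicate 3 their adjusted p was 0.217 and 0.138, and 0 members were called also without E0771-Res2 replicate 1 or E0771-Res1 replicate 2 or 3. With C1qa limits set per 7000 UMIs of a cell, 1 member was called against E0771 and 0 against E0771-Res1. Median UMIs of C1q-low cells were 4997 to 6369 in E0771-Res2 and 7022 to 7910 in the other mice, and the part of depth was examined only by thinning every cell to 2500 UMIs (1 member called against E0771-Res1).

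In C1q-high cells 0 of 33 members were called between E0771-Res2 and E0771 (0.612% of genes higher, 1.09% lower), with 8 at an unadjusted p under 0.05 and 0 in DESeq2. There 28 of 33 fold changes were positive and their median was 0.25 (0.00 over all genes). The mice of the 2 lines overlapped in both sums. E0771 replicate 1 had 6327 CPM of the glycolysis and 1524 of the other members, and E0771-Res2 replicate 1 had 6217 and 1510. The make-up of the C1q-high set moved too. Its monocyte marker sum was 3244 to 3964 CPM in E0771 and 1747 to 2116 in E0771-Res2 mice. The macrophage sum was 13876 to 15145 and 19034 to 20221 CPM. Median UMIs of these cells were 10230 to 10361 and 7001 to 8894.5. The part of these in the result was not tested. Ddit4, an inhibitor of the growth kinase mTORC1 that hypoxia and stress induce, differed between the resistant lines. It stood at 13.5 and 17.5 CPM in E0771, 7.48, 13.3 and 8.04 in E0771-Res1 mice and 16, 19.4 and 22.0 in E0771-Res2 mice. All E0771-Res2 mice lay above all E0771-Res1 mice, by a log2 fold change of 1.14 ± 0.25 (edgeR adjusted p = 0.0249), where 1.54% of genes were higher and 1.15% lower. DESeq2 called 0 members there. The call was lost without E0771-Res1 replicate 1 (adjusted p = 0.180) and without E0771-Res2 replicate 2 or 3, and with cells thinned to 2500 UMIs.

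Lymphoid-gated cells gave 0 of 33 members called between E0771-Res2 and E0771 (0.746% of genes higher, 0.205% lower) and 0 between the resistant lines (0.789% and 0.227%). In edgeR 4 and 3 members had an unadjusted p under 0.05, and DESeq2 called 0 and 0. Their medians were 0.08 and -0.01, beside -0.00 and -0.00 over all genes.

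Of the further genes of the pathway that are no members, edgeR called 0 between E0771-Res1 and E0771 in any cell set. Pdk3, another pyruvate dehydrogenase kinase, was lower in E0771-Res2 than in E0771 over all kept cells (-0.72 ± 0.13, edgeR adjusted p = 0.00978), the 1 gene called of 26 further glycolysis and pyruvate genes tested. Of 23 further hypoxia targets 2 were higher, among them Plin2, which coats lipid droplets (0.45 ± 0.11, edgeR adjusted p = 0.0365). Over all genes 2.12% were higher and 2.24% lower in this comparison. Of 6 oxygen sensing genes tested there edgeR called 0, and 0 had an unadjusted p under 0.05.

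Between the resistant lines, 2 of the 26 further glycolysis and pyruvate genes were called over all kept cells, Eno3, the muscle-type enolase, as higher in E0771-Res2 (0.58 ± 0.12, edgeR adjusted p = 0.0213) and Pdk3 as lower (-0.50 ± 0.11, 0.0300). Of the 23 further hypoxia targets 2 were higher and 1 lower, beside 2.49% and 1.71% of all genes. Plin2 stood at 590, 626 and 532 CPM in E0771-Res1 mice and 921, 769 and 911 in E0771-Res2 mice (0.57 ± 0.09, edgeR adjusted p = 0.00705). Lox, the lysyl oxidase that crosslinks collagen, was scarce, with 0.547, 2.59 and 0.809 CPM in E0771-Res1 mice and 11.3, 3.61 and 8.34 in E0771-Res2 mice (2.97 ± 0.52, 0.00891). Sdc4, a cell surface proteoglycan, had 378, 430 and 390 CPM against 244, 230 and 208 (-0.82 ± 0.09, 0.000780). In these 3 targets the mice of the resistant lines did not overlap. Plin2, Lox and Sdc4 were called in the same directions in C1q-high and in C1q-low cells, and Plin2 also in lymphoid-gated cells. Against E0771, Plin2 was higher in E0771-Res2 in lymphoid-gated (0.77 ± 0.14) and C1q-low cells (0.44 ± 0.11), and Pdk3 (-0.72 ± 0.14) and Sdc4 (-0.67 ± 0.13) were lower in C1q-low cells.

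Whether a line's effect differed between cell sets was tested as such, and no member passed. For E0771-Res2 against E0771, the effect in C1q-high minus that in C1q-low cells was positive for 31 of 33 members with a median of 0.30 (-0.00 over all genes), and 11 had an unadjusted p under 0.05. The lowest adjusted p was 0.142, for Pgk1, phosphoglycerate kinase (0.56 ± 0.14, edgeR). Pkm followed (0.42 ± 0.12, 0.190) and then Bnip3, a receptor for mitophagy (1.01 ± 0.29, 0.205). Of all genes 0.0108% were called higher and 0.108% lower. The other differences gave 0 calls as well: 3 of 33 members at an unadjusted p under 0.05 for E0771-Res1 in C1q-high minus C1q-low cells (0% and 0% of genes called), 2 for E0771-Res1 in lymphoid-gated minus myeloid cells (0.0108% and 0%) and 3 for E0771-Res2 there (0.205% and 0.0755%). DESeq2 called 0 members in all 4.

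More members were called between cell sets than between lines. The designs differed, with mouse as a block only between cell sets, where more of all genes were called too. The counts therefore do not compare sizes of effects. C1q-low myeloid cells had higher levels of most members than C1q-high cells of the same mice: 21 of 33 members were lower in C1q-high cells, 2 were higher and 10 did not pass, while over all genes 28.5% were higher and 26.7% lower. The median over the members was -0.40 on the log2 scale, beside 0.03 over all genes. It held for both lists, with 10 of 16 glycolysis members and 11 of 17 other hypoxia members lower. The sums did not show it in every line. Mean glycolysis sums were 5963, 6626 and 6797 CPM in C1q-high cells of E0771, E0771-Res1 and E0771-Res2 mice. In C1q-low cells they were 7243, 7245 and 6752. The other hypoxia members had 1370, 1611 and 1726 CPM in C1q-high against 1595, 1718 and 1660 in C1q-low cells. In E0771-Res2 neither mean sum was thus lower in C1q-high cells. The sum of the monocyte markers was 7373 to 11218 CPM in C1q-low and 1541 to 3964 in C1q-high cells. C1q-high cells were also deeper, with medians of 7001 to 11481 UMIs per mouse against 4997 to 7910 (the gate counts C1qa UMIs of cells that were not thinned).

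Pfkp, Slc16a3 and Slc2a1 were the glycolysis members that differed most. Pfkp ran from 49.3 to 82.6 CPM in C1q-high and from 109 to 172 in C1q-low cells of the 8 mice, with no overlap (-1.17 ± 0.06, edgeR adjusted p = 3.83e-14). Slc16a3 ran from 69.7 to 116 CPM in C1q-high and from 116 to 211 in C1q-low cells (-0.98 ± 0.10, 1.04e-08). Slc2a1, the glucose transporter GLUT1, had 37.2 to 73.7 CPM against 72.6 to 112, so the sets overlapped by little (-0.70 ± 0.09, 4.41e-07). The 6 glycolysis members that did not pass were Ldha (0.00 ± 0.06), Aldoa (-0.03 ± 0.06), Pfkl (-0.04 ± 0.08), Tpi1 (-0.06 ± 0.06), Gapdh (-0.10 ± 0.04, edgeR adjusted p = 0.0612) and Gpi1 (-0.11 ± 0.05). The 7 remaining members (Hk1, Hk2, Pfkfb3, Pgk1, Pgam1, Eno1 and Pkm) were lower in C1q-high cells, at -0.64 to -0.18, among them the abundant Pkm (-0.45 ± 0.06) and Pgk1 (-0.47 ± 0.07).

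Among the other hypoxia members Egln3 differed most, with 1.09 to 8.54 CPM in C1q-high and 9.23 to 28.4 in C1q-low cells (-1.46 ± 0.16, edgeR adjusted p = 1.24e-08). Hif1a had 63.4 to 124 CPM against 101 to 162 (-0.80 ± 0.08, 2.84e-09). Ankrd37, an ankyrin repeat protein among the sharpest HIF targets (-0.71 ± 0.11, 4.96e-06), and Ero1l, an oxidase of protein folding in the endoplasmic reticulum (-0.70 ± 0.09, 4.90e-07), followed. The 2 members higher in C1q-high cells were Pdk1 (0.50 ± 0.12, 0.00142; 15.1 to 24.1 against 9.12 to 15.6 CPM) and Mif (0.18 ± 0.06, 0.00671). Egln1, P4ha1, Fam162a, a mitochondrial protein, and Ddit4 did not pass.

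In the further lists, 12 of 22 glycolysis and pyruvate genes were lower in C1q-high cells and 2 higher (26.7% and 28.5% of all genes). The largest differences were those of Slc2a6, a sugar transporter of lysosomes (-2.14 ± 0.15), Eno3 (-1.47 ± 0.14) and Pdk3 (-1.15 ± 0.10). Of 18 further hypoxia targets 6 were higher, among them Angptl4, an inhibitor of lipoprotein lipase (1.80 ± 0.25), and Plod1, a lysyl hydroxylase (1.23 ± 0.12), and 3 were lower, with Bhlhe40, a transcriptional repressor, first (-1.39 ± 0.09). Of 6 oxygen sensing genes 1 was higher (Egln2, another prolyl hydroxylase, 0.22 ± 0.07) and 1 lower (Vhl, which tags HIF for destruction, -0.84 ± 0.10).

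**Figure D3:**
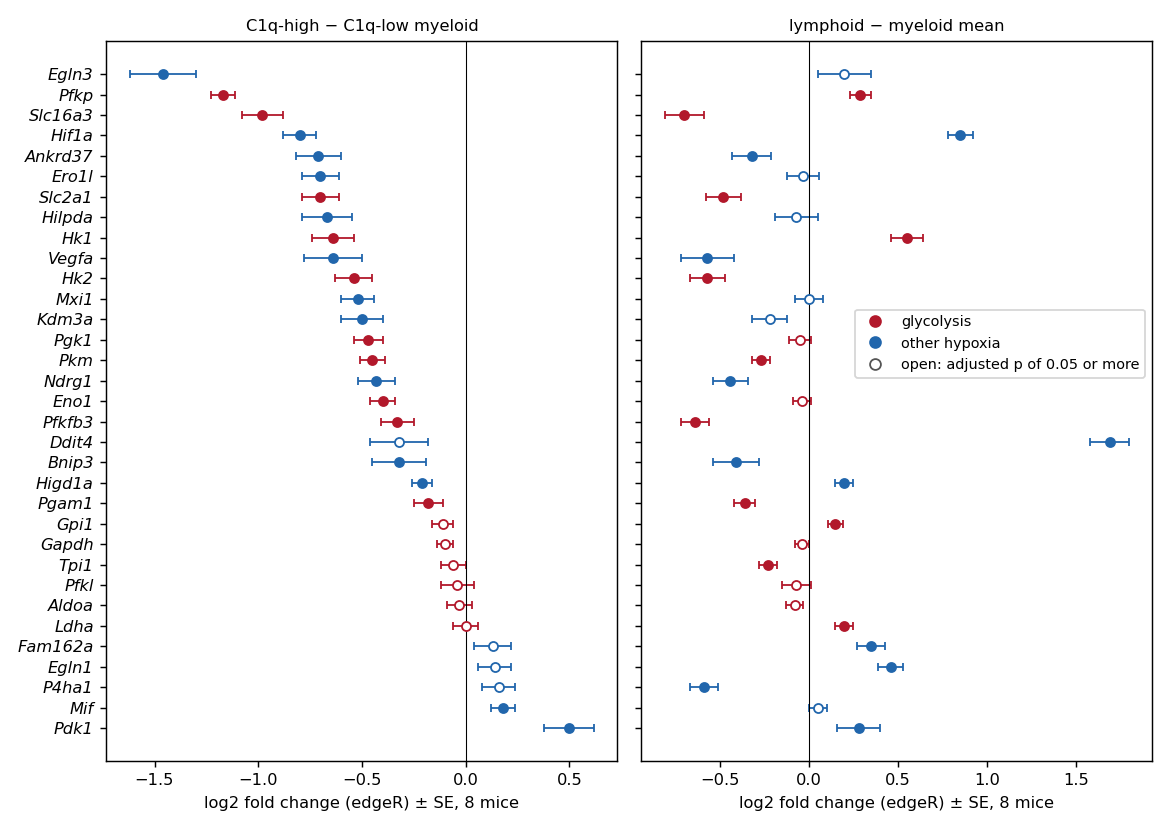
Log2 fold changes (edgeR, ± SE, mice as blocks, n = 8) of 33 members between C1q-high and C1q-low myeloid cells (left) and between lymphoid-gated cells and the mean of both myeloid sets (right), in the order of the left panel, with filled points past an adjusted p of 0.05. Pfkp, Slc16a3 and Hif1a stood well below 0 on the left, and Ddit4 at 1.69 and Hif1a at 0.85 well above 0 on the right.

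Between lymphoid-gated cells and the mean of both myeloid sets, the members as a group split much as all genes did. Of 33 members 10 were higher and 12 lower (32.1% and 31.4% of all genes), and the median was -0.05 (0.01 over all genes). Ddit4 was the member that differed most, with 41.2 to 79.3 CPM in lymphoid-gated cells and at most 25.7 in either myeloid set (1.69 ± 0.11, edgeR adjusted p = 2.89e-13). Hif1a was next, with 177 to 257 CPM (0.85 ± 0.07, 1.45e-11). Among glycolysis members Hk1 (0.55 ± 0.09), Pfkp (0.29 ± 0.06), Ldha (0.20 ± 0.05) and Gpi1 (0.15 ± 0.04) were higher. Mean Pfkp was 144 CPM in lymphoid-gated, 147 in C1q-low and 68.9 in C1q-high cells, so it lay above the C1q-high set only. Egln1 (0.46 ± 0.07), Fam162a (0.35 ± 0.08), Pdk1 (0.28 ± 0.12, adjusted p = 0.0449) and Higd1a (0.20 ± 0.05) completed the higher side.

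Lower in lymphoid-gated cells were 7 glycolysis members, led by Slc16a3 (-0.70 ± 0.11, edgeR adjusted p = 2.20e-06), Pfkfb3 (-0.64 ± 0.08), Hk2, the inducible hexokinase (-0.57 ± 0.10), and Slc2a1 (-0.48 ± 0.10), and 5 others, led by P4ha1 (-0.59 ± 0.08) and Vegfa, the vessel growth factor (-0.57 ± 0.15). The rest (Ndrg1, Bnip3, Pgam1, Ankrd37, Pkm and Tpi1) stood at -0.44 to -0.23. Some of these lay between the myeloid sets in mean CPM, given for lymphoid-gated, C1q-high and C1q-low cells. Slc2a1 (57.1, 54.2 and 85.3), Pkm (923.6, 848.5 and 1081) and Ankrd37 (28.0, 24.4 and 36.9) lay below the C1q-low set only. Tpi1 (555.2, 571.6 and 554.6) lay below the C1q-high set only. Without the 483 mixed droplets the largest differences were larger: Ddit4 had 2.14 ± 0.13, Hif1a 1.06 and Slc16a3 -1.15. There 19 members were called, and Gpi1 (adjusted p = 0.0636), Pdk1 (0.321) and Ankrd37 (0.108) were not. With cells thinned to 2500 UMIs the value of Vegfa was -0.10 (adjusted p = 0.672).

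In the further lists 5 of 22 glycolysis and pyruvate genes were higher in lymphoid-gated cells than in the mean of both myeloid sets. Over all genes 32.1% were higher and 31.4% lower. They were Slc2a3, the high-affinity glucose transporter GLUT3 (2.39 ± 0.15, edgeR adjusted p = 1.13e-13), Slc16a1, the lactate carrier MCT1 (1.01 ± 0.18), Bpgm, which makes bisphosphoglycerate (0.93 ± 0.16), Aldoc (0.69 ± 0.24) and Eno3 (0.30 ± 0.13, adjusted p = 0.0498). Eno3 had 43.0 CPM in lymphoid-gated, 47.4 in C1q-low and 17.8 in C1q-high cells, so its lymphoid level lay above that of the C1q-high set and not above that of the C1q-low set. The other direction held 10 of the 22 genes, led by Hk3, a myeloid hexokinase (-1.14 ± 0.09). Of 18 further hypoxia targets, some of them in both lists, 6 were higher and 10 lower, with Rora, a nuclear receptor of lymphoid cells, highest (3.99 ± 0.09). Of 6 genes tested from the oxygen sensing list 2 were higher (Arntl, a circadian clock gene, at 1.31 ± 0.17 and Hif1an at 0.99 ± 0.17) and 4 lower.

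To ask whether the genes move together from cell to cell, myeloid cells were thinned to 2500 UMIs and called hypoxia-marked with at least 2 UMIs in sum of Hilpda, Ankrd37, Ndrg1, Egln3 and Adm. Hilpda gave most of the mark: marked cells had means of 941 CPM of Hilpda, 276 of Ndrg1, 131 of Ankrd37, 61.1 of Egln3 and 7.71 of Adm. The name rests on these transcripts, and oxygen was not measured here. The share of marked cells was 11.1% (91 of 821; exact 95% interval 9.02 to 13.4) and 6.55% (30 of 458; 4.46 to 9.22) in the E0771 mice. It was 9.73%, 12% and 10.6% in E0771-Res1 mice and 10.4%, 10.2% and 11.7% in E0771-Res2 mice, so the lines overlapped, and E0771 replicate 3 was the lowest. The means were 8.82 ± 3.21%, 10.8 ± 1.17% and 10.8 ± 0.816%. Intervals cover counting error only. In C1q-low cells the means were 8.60, 12 and 11.1%, in C1q-high cells 7.19, 6.96 and 9.00%, and in lymphoid-gated cells 11.2 ± 3.12, 9.25 ± 4.61 and 11.6 ± 1.83%.

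No cell set here is known to lack the mark genes, so no share of free RNA could be read from one. The counts of the mark were more uneven among myeloid cells than among lymphoid-gated cells: the variance over the mean of mark UMIs was 2.67 to 8.22 per mouse in myeloid cells, with up to 39 UMIs in 1 cell of 2500, and 1.25 to 3.09 in lymphoid-gated cells, with up to 11. The mean was 0.450 to 0.757 UMIs in the former and 0.325 to 0.696 in the latter. In lymphoid-gated cells with under 5 UMIs of the myeloid gate genes the variance over the mean was 1.21 to 2.46 and the highest cell had 5.

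Marked myeloid cells had more of every other member tested. Mark genes and tested members come from the same list of known hypoxia genes, chosen with earlier results of these data known. That they move together was thus partly given by the choice of the list, and the p-values do not account for it. Of the 30 members the mark did not use, 29 were tested, P4ha2 having too few counts, and 29 of 29 were higher than in the other myeloid cells of the same mice, by 0.54 to 2.41 on the log2 scale with a median of 1.15 (-0.01 over all genes; 11.3% of genes higher, 8.31% lower). DESeq2 called 29 as well. The 16 glycolysis members had a median of 1.02 and the 13 others one of 1.21. All 29 were also called within C1q-low cells alone (median 1.15) and without the cells with tumor markers; within C1q-high cells alone, over the 6 mice with enough marked cells, 26 were called and all 29 were positive (median 1.01).

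Bnip3 differed most of the members outside the mark. It stood at 242 and 234 CPM in marked cells of E0771, 211, 255 and 169 in E0771-Res1 mice and 225, 232 and 204 in E0771-Res2 mice, against 31.7 to 53.4 in the other myeloid cells (2.41 ± 0.09, edgeR adjusted p = 5.56e-15). The lowest marked value was thus well above the highest unmarked one. Ero1l was next, at 121 to 351 CPM against 42.7 to 64.5 (2.38 ± 0.12, 2.40e-12), then Mxi1, an antagonist of MYC (1.93 ± 0.11). Vegfa had 30.4 to 165 CPM in marked and 22.1 to 43.1 in other cells (1.84 ± 0.16), the one of these genes whose ranges overlapped. Ddit4 was higher by 1.47 ± 0.15.

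Among glycolysis members Slc2a1 differed most. It had 146 and 182 CPM in marked cells of E0771, 199, 219 and 177 in E0771-Res1 mice and 212, 199 and 217 in E0771-Res2 mice, against 48.1 to 73.4 in other cells (1.86 ± 0.09, edgeR adjusted p = 1.63e-12). Of the glycolysis enzymes that did not pass between the C1q sets, the 4 most abundant were higher here: Tpi1 by 1.35 ± 0.06, Aldoa by 1.19 ± 0.05, Ldha by 1.03 ± 0.06 and Gapdh by 0.88 ± 0.05. Pgk1, whose promoter is printed above, had 741 to 1198 CPM against 321 to 434 (1.32 ± 0.07). At the low end were Pfkp (0.69 ± 0.10) and Hk1 (0.65 ± 0.15), and Hif1a differed least of all 29 (0.54 ± 0.08, adjusted p = 4.48e-05), with 114 to 219 CPM against 84.2 to 137. The mark genes themselves were higher by 2.70 (Ndrg1) to 3.95 (Hilpda), which the choice of cells fixed.

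**Figure D4:**
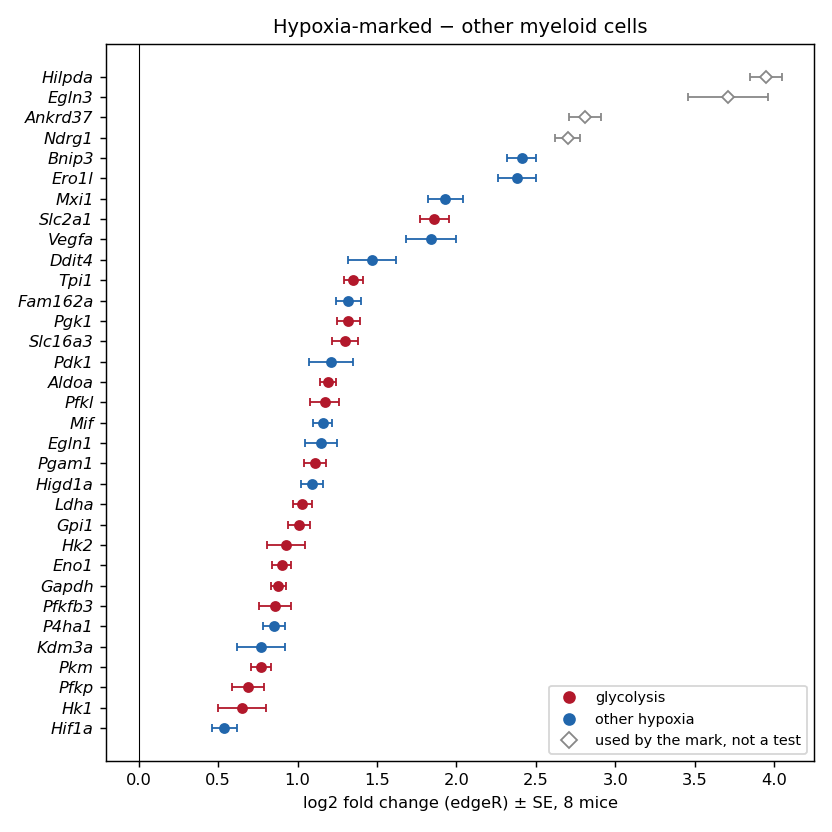
Log2 fold changes (edgeR, ± SE, mice as blocks, n = 8) of members between hypoxia-marked and other myeloid cells, with the mark genes as open diamonds (Adm had too few counts). All 29 members outside the mark lay right of 0, from Hif1a at 0.54 to Bnip3 at 2.41.

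The further lists did not move as one with the mark (11.3% of all genes higher, 8.31% lower). Of 21 glycolysis and pyruvate genes 2 were higher, Pgm1, which feeds glycogen sugar into glycolysis (1.20 ± 0.13), and Aldoc (1.14 ± 0.30), and 2 were lower, Eno3 (-0.72 ± 0.18) and Slc2a6 (-0.62 ± 0.20). Of 15 further hypoxia targets 10 were higher, led by Arg1, the arginase of suppressive myeloid cells (3.98 ± 0.40, edgeR adjusted p = 1.57e-07), Hmox1, heme oxygenase (1.42 ± 0.14), and the metallothionein Mt1 (1.12 ± 0.08). Of 5 oxygen sensing genes Vhl (0.66 ± 0.12), Arnt, the partner of HIF-1α (0.35 ± 0.11), and Cited2, which limits HIF activity (0.24 ± 0.08), were higher.

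Several other measures moved with the mark or did not. Median UMIs before thinning were 6465 to 8651 in marked and 6093 to 8787 in other cells, and the median mitochondrial share was lower, 0.762 to 1.26% against 1.29 to 1.68%. The macrophage marker sum was 3455 to 7601 CPM in marked and 5935 to 11710 in other cells, the monocyte sum 3435 to 7253 against 4532 to 8517. The neutrophil marker sum was 60.8 to 306 CPM in marked cells of 7 mice, 1788 in those of E0771-Res1 replicate 2 and 84.4 to 185 in other cells, with no gene of its list at 0. At most 1 marked cell per mouse had tumor epithelial markers, which can miss mesenchymal-like tumor cells. The sum of 5 fibroblast markers was 124 CPM in marked cells of E0771-Res2 replicate 2 and 26.2 in those of E0771-Res1 replicate 1. It was 0 to 9.06 CPM in marked cells of the remaining mice and 1.91 to 8.30 in other myeloid cells. The part of these in the result was not tested, beyond the comparisons within C1q sets and without tumor-marker cells above.

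The sum of the glycolysis members was higher at each step of the mark. Thinned myeloid cells with 0 mark UMIs (5731 cells) had 11.8 ± 0.809 UMIs of the glycolysis members (SD over 8 mice), those with 1 (1323 cells) 15.4 ± 0.880 and those with 2 (387 cells) 19.4 ± 1.92. With 3 (159 cells, 7 mice) they had 25.5 ± 3.39, and with 4 or more (276 cells) 33.8 ± 6.28. The 14 other members outside the mark went from 2.35 to 9.25 ± 0.885 UMIs over the same steps, with a lower value at 2 mark UMIs (3.09) than at 1 (3.38) in E0771-Res1 replicate 3. Single genes did not move alike: Bnip3 went from 0.0793 to 0.826 UMIs per cell, Ldha from 1.08 to 3.04, Gapdh from 3.28 to 8.69 and Mif from 1.00 to 3.16. Hif1a did not climb at each step, with 0.228 UMIs at 0 mark UMIs, 0.340 at 2, 0.297 at 3 and 0.414 at 4 or more. These means are a description over cells of the same mice and carry no test.

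**Figure D5:**
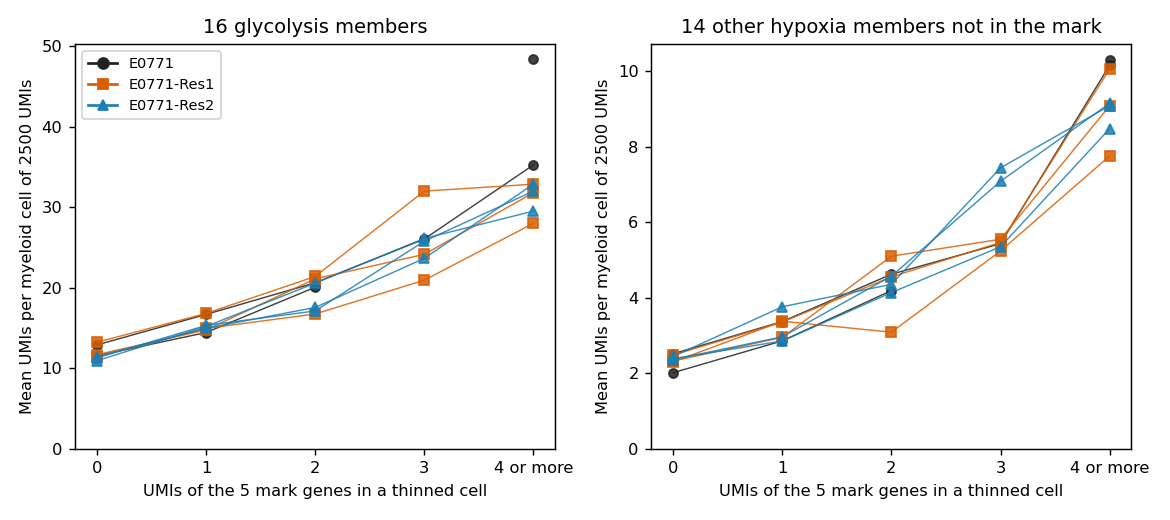
Mean UMIs of the 16 glycolysis members (left) and the 14 other hypoxia members outside the mark (right) per myeloid cell thinned to 2500 UMIs, by the number of mark UMIs in the cell, with one line per mouse (a step with under 5 cells, as in E0771 replicate 3 at 3 UMIs, has no point). Glycolysis went from a mean of 11.8 UMIs at 0 mark UMIs to 33.8 at 4 or more.

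Lymphoid-gated cells with the mark also had more glycolysis UMIs than those without it, 19.9 ± 3.17 against 12.5 ± 0.691 per 2500 UMIs (126 and 1096 cells), and higher in 8 of 8 mice. The other members outside the mark had 5.37 ± 0.616 against 3.18 ± 0.252. Without the mixed droplets the glycolysis values were 19.4 ± 2.84 and 12.1 ± 1.02, higher in 7 of the 7 mice with at least 5 marked cells. No test was run on these values.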

How the data were processed

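Raw UMI counts per gene and cell were deposited by the authors for each mouse, made with Cell Ranger 6.1.2 (matrix header) on mm10 (submitters' processing notes), with 9 tag features that were left out here. No author annotation of cells was used. The sources describe 3 mice per line; 1 parental mouse was not analysed here. Doublets were kept. Mitochondrial, ribosomal protein and Gm-prefixed genes were left out, which left 23659 genes. Counts were summed per mouse and cell set (at least 10 cells) and tested with edgeR 4.0.16 in R 4.3.3 (TMM, filterByExpr, quasi-likelihood test, Benjamini-Hochberg over all genes tested, threshold 0.05), by line, or with mouse as a block between cell sets of the same mice. DESeq2 1.42.0 was an alternative, and the fits were tested on simulated data. CPM use the summed counts of the set over the 23659 genes. Python 3.11.15 with numpy 2.4.6, scipy 1.17.1 and pandas 2.3.3 made the sums, thinning and exact Clopper-Pearson intervals. Mice are labelled as separate animals and were pooled in 1 run. P-values between lines measure the spread between mice. Those of fits with mouse as a block measure how differences between cell sets vary from mouse to mouse. Every member with an adjusted p under 0.05 was named (beyond 12, the 6 largest per direction), and further genes only from 3 lists of pathway genes, of which all calls between lines are named except 1 gene not reported here, and between cell sets some, the rest as counts. The members and lists were chosen with earlier results of these data known. Replicates of a line differed by more than sampling noise (chi-square per degree of freedom 2.66 to 12.4).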

Additional observations from a re-analysis of the deposited data

How the results depend on the processing

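In no alternative did a called member change direction. All 29 calls between marked and other myeloid cells were kept when any 1 mouse was left out, and the counts between cell sets stayed at 21 to 25 (C1q sets) and 20 to 23 (lymphoid-gated cells). Other settings did lose calls between cell sets. With cells thinned to 2500 UMIs these included Kdm3a (edgeR adjusted p = 0.245) and Higd1a (0.150) between the C1q sets. For lymphoid-gated cells they included Ankrd37 (0.183), Higd1a (0.0966) and Fam162a (0.0503). Pdk1 was not called there in 12 of 16 alternatives. The few calls between lines depended on the processing as well. Leaving out 1 mouse gave 0 to 3 members for E0771-Res2 against E0771 and 0 to 2 against E0771-Res1 over all kept cells, 0 to 3 and 0 to 2 in C1q-low cells, and 0 to 1 between the resistant lines in C1q-high cells. Without the filter on low counts, 1 (E0771-Res1 against E0771), 4 (E0771-Res2 against E0771) and 3 (between resistant lines) were called over all kept cells, 1 for E0771-Res2 against E0771 in lymphoid-gated cells, 1 and 5 against E0771 in C1q-high cells, 1 for E0771-Res1 against E0771 and 6 between the resistant lines in C1q-low cells, and 3, 1 and 1 for the differences of line effects. DESeq2 called 2 and 1 for E0771-Res2 against E0771 and E0771-Res1 over all kept cells, 0 between resistant lines in C1q-high cells and 1 for E0771-Res1 in C1q-low cells. Thinning to 2500 UMIs gave 3 and 2 over all kept cells, 0 in C1q-high and 1 in C1q-low cells between resistant lines. All deposited cells gave 1, and C1qa limits per 7000 UMIs 1 (against E0771) and 0, in C1q-low cells. The share of hypoxia-marked myeloid cells, E0771-Res2 minus E0771, was 1.95 percentage points, and -0.399 when cells were thinned to 1500 UMIs. The causes were not tested. The replicate number was also used as a block (replicate block). Then 2 and 1 members were called for E0771-Res2 against E0771 and E0771-Res1 over all kept cells. The other line counts kept their values. Same-numbered mice correlated at -0.083 to 0.165 and other-numbered mice at -0.128 to 0.083. Between the resistant lines alone these ranges were 0.083 to 0.165 and -0.128 to -0.008. With so few pairs the values do not settle whether the numbers pair the mice. Shallow members (Adm, P4ha2) could not be tested in gated sets, and 2 parental mice limit every comparison with E0771. The settings that split lymphoid cells by mixed droplets, took C1q sets alone or left out tumor-marker cells from marked cells were chosen after seeing the data.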
